A study of Mus musculus with 9 samples.

Results

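Of the 5100 Cdx2 peaks called on chromosomes 1 to 19 and X in mouse colon epithelium, 2765 (54.2%, Wilson 95% interval 52.8 to 55.6%) shared no base with an ATAC-seq peak of any of the 4 deposited lists. These peaks, called ATAC-negative here, were chosen by that overlap alone, so their number is a description and supports nothing further. The other 2335 peaks overlapped at least 1 ATAC peak. Of all 5100, 499 (9.78%) were open in 1 Wt list only, 1566 (30.7%) in both Wt lists and no DKO list, and 270 (5.29%) in at least 1 DKO list. The lists hold called peaks and no signal tracks, so ATAC-negative means that no peak was called, and signal too weak for the caller was not measured.

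Cdx2 is a caudal-type homeodomain factor that marks and maintains the intestinal epithelium, and its close relative Cdx1 recognises the same AT-rich sites. Such sites lie in the promoters and enhancers of genes for digestion, absorption and mucus, with the sucrase-isomaltase promoter as the classical example. ATAC-seq reads out where the transposase can insert into DNA and so marks accessible chromatin, whereas ChIP-seq reads out DNA crosslinked to the factor.

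The study asked where Cdx2 binds, and how accessibility and expression change without it. Cells came from the large intestine, enriched for epithelium with 5 mM EDTA. All groups carried Cdx1-/- and Cdx2f/f by their strain labels. The groups labelled DKO were also vill (+) and those labelled Wt vill (-), a tag that the labels do not spell out, and its promoter and recombinase are not stated in the sources used here. ATAC-seq (2 Wt and 2 DKO libraries) and RNA-seq (2 and 2) came from mice given tamoxifen for 6 days. The single Cdx2 ChIP-seq library, with no replicate, was labelled Wt and vill (-). Its treatment label reads untreated while the protocol given for all samples names tamoxifen, and which holds is not settled here. Ages are not given, and nothing in the labels says that replicates were separate animals, so any spread between them may be technical. For the targeted gene, Cdx2, the authors' deposited table gave -0.27 on the log2 scale (SE 0.21, adjusted p = 0.301), which is no call, and a gene total does not show whether an exon was deleted. Cdx1, labelled null throughout, was detected (mean normalized count 2595) and was lower by the authors' deposited table (log2 value -1.06, adjusted p = 2.08e-05). The groups are therefore called by their labels, and the loss of Cdx2 and of Cdx1 cannot be told apart. Across the list of intestinal identity genes, the median of the mean normalized counts was 8892, and the authors' deposited table called 18 of 28 lower in DKO and 2 higher, where 18.3% of all 17511 genes were lower and 18.5% higher, so markers of the labelled epithelium were present.

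Sequences are shown for 5 starts at which an ATAC-negative peak overlapped the start window and the RNA of the gene differed, since here peak, sequence and expression meet. Each is the stretch of RefSeq (GRCm38.p6, the assembly of mm10) covered by both the peak and the window of 250 bases before a listed start, written 5′ to 3′ on the gene's strand. Capitals mark matches to TTTATG or TTTATT, letters of the Cdx binding site, or to their reverse complements CATAAA and AATAAA. The stretches lie at chr3:72967864-72967968 (minus strand) for Sis, chr3:122894895-122895071 (plus) for Fabp2, chr11:76901989-76902158 (plus) for Tmigd1, chr2:14174358-14174523 (plus) for Tmem236 and chr11:100105752-100105876 (minus) for Krt36.
Sis: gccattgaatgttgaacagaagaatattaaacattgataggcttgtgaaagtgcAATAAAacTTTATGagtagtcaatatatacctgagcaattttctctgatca
Fabp2: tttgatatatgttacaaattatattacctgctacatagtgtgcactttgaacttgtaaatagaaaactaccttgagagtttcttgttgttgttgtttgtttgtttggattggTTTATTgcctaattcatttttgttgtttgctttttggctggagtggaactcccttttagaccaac
Tmigd1: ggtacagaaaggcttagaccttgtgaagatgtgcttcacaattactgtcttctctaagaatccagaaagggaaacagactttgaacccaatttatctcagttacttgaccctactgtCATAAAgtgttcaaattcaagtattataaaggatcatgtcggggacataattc
Tmem236: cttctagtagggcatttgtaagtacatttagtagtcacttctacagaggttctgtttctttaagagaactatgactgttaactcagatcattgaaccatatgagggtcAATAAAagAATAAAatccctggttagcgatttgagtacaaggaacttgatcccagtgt
Krt36: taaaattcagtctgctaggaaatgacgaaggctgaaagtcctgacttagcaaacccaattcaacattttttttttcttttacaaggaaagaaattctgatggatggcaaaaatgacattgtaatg
Counting back from the start, with -1 as the base before it, the Sis stretch held AATAAA from -51 and TTTATG from -43, and the Fabp2 stretch held TTTATT from -65. Tmigd1 held CATAAA from -53. Tmem236 held AATAAA from -58 and again from -50. The Krt36 stretch held none of these letters, but the summit of its peak lies beyond the window and so outside the stretch. The letters did not follow the direction of the RNA: over the whole 300-base windows of the genes in the authors' deposited table, they were present at 8 of 11 genes called lower, 1 of 2 called higher (Dennd1b) and 9 of 10 not called.

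The 5 genes were picked for display from the 13 called genes with a bound start window, 4 of them lower and 1 higher. Sis (ENSMUSG00000027790, chr3:72888557-72967863), the brush-border enzyme that digests sucrose and starch products, fell by 9.84 on the log2 scale of the authors' deposited table (SE 2.97, adjusted p = 1.28e-08), where its mean normalized count was only 67.2. Its peak (chr3:72967738-72967968) had its summit 17 bases before the start, a fold enrichment of 7.09 over local background, and no ATAC peak of any library within 78415 bases. Fabp2 (ENSMUSG00000023057), the intestinal fatty acid binding protein, fell by 4.14 on the log2 scale of the authors' deposited table (SE 0.30, adjusted p = 2.63e-42, mean normalized count 5021). The Fabp2 summit lay 34 bases before the start, with a fold enrichment of 5.76 and the nearest ATAC peak 6088 bases off.

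Sis and Fabp2 thus had bound promoters with no called accessibility close by, and Fabp2 was an abundant transcript. Tmigd1 (ENSMUSG00000020839), an adhesion protein of epithelial cells, fell by 5.72 on the log2 scale of the authors' deposited table (SE 0.47, adjusted p = 2.98e-33). Its summit lay 16 bases before the second of its listed starts, with ATAC peaks 1269 bases away in DKO 1 and 1693 bases away in Wt 2. Tmem236, a membrane protein, fell by 1.03 on the log2 scale of the authors' deposited table (SE 0.39, adjusted p = 0.0139), with its summit 62 bases before the start. Krt36, a keratin of hair and nail, stood at a log2 change of 3.07 in the authors' deposited table (SE 0.83, adjusted p = 0.000115). The Krt36 summit lay farther out, 281 bases before a listed start that is inside the gene's span, so this peak also lay inside the gene.

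**Figure D1:**
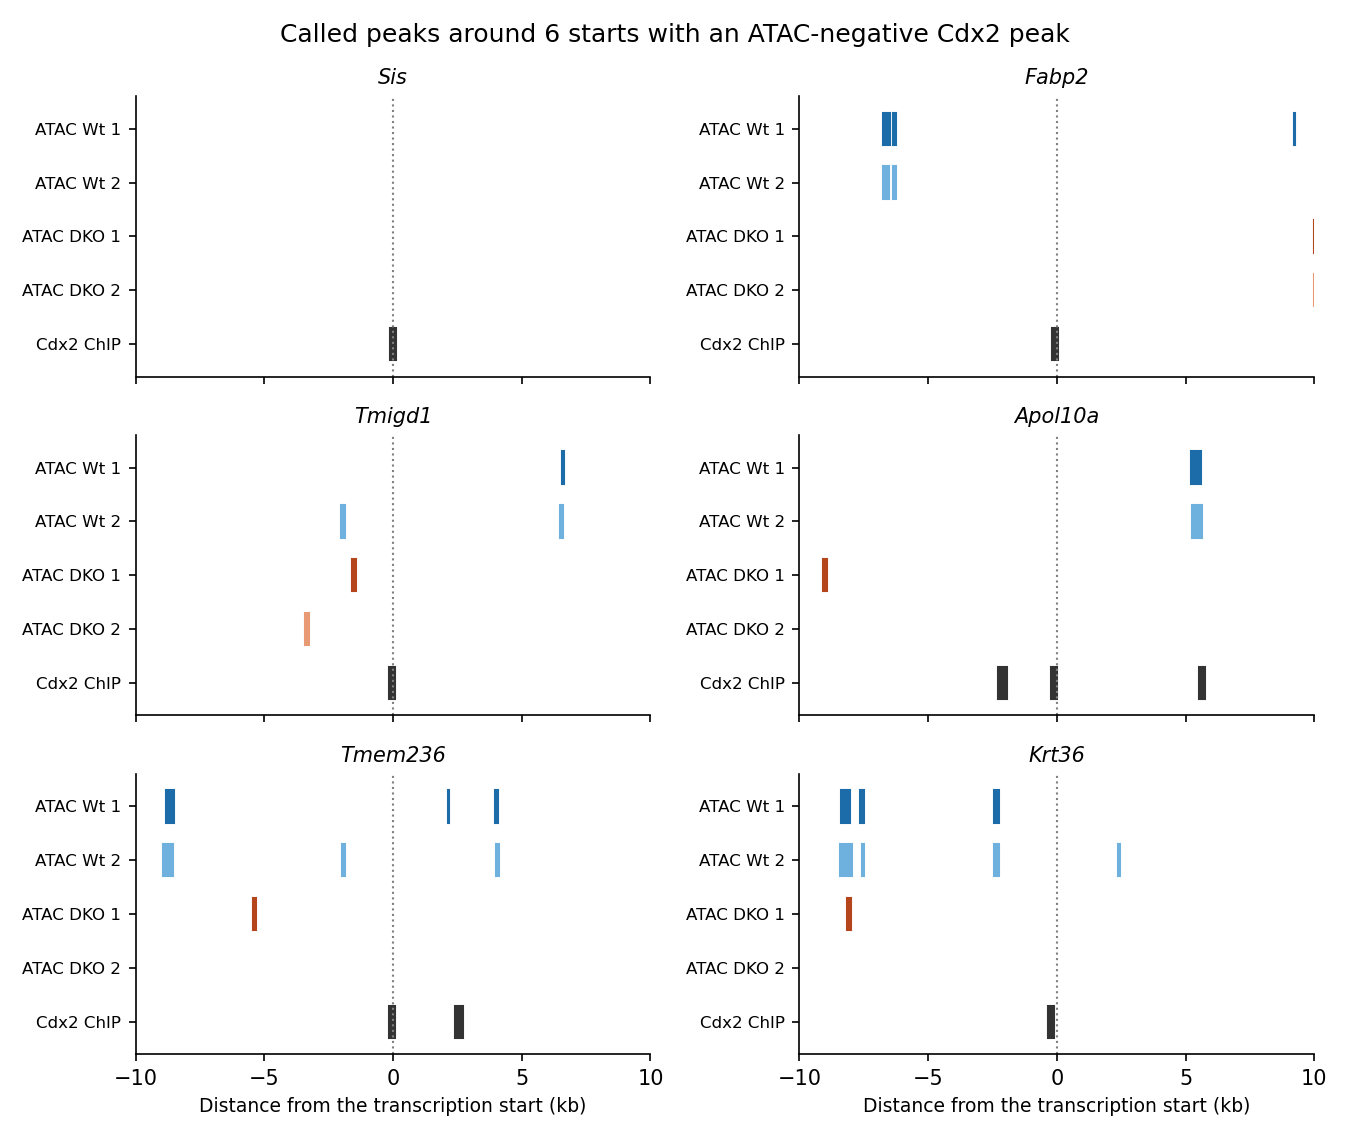
Called peaks within 10 kb of 6 transcription starts at or next to which an ATAC-negative Cdx2 peak lies. The horizontal axis is the distance from the start in kb with downstream positive, and each bar is a called peak at its true width in the Wt ATAC lists (blue), the DKO ATAC lists (red) or the Cdx2 list (black). Sis has no ATAC peak in the window, and at Fabp2 the nearest lies 6088 bases away.

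In all, 38 ATAC-negative peaks overlapped a RefSeq start window of 300 bases (250 before the start and 50 after it), at 40 genes. Of these genes, 23 were in the authors' deposited table, which called 11 lower (47.8%) and 2 higher (8.70%) in DKO at an adjusted p under 0.05. Among all 12118 genes of that table with a listed start, 19.4% were called lower and 20.3% higher. The count of 23 is small. Of 95 genes with a listed start within 1 kb of an ATAC-negative summit, that table called 25 lower (26.3%) and 18 higher (18.9%). The Wilson 95% interval of the share lower, 18.5 to 36.0%, includes the 19.4% of all genes. Besides Sis, Fabp2, Tmigd1 and Tmem236, the lower genes were Apol10a, Hoxd4, Tnfsf13b, Cnpy4, Taf6, Fam161a and Gm12511, and Dennd1b was higher beside Krt36. Cnpy4 and Taf6 share 1 start region and 1 peak, so they are not independent. Apol10a, of the apolipoprotein L family, fell by 8.84 on the log2 scale of the authors' deposited table (SE 0.41) at a mean of 2537 normalized counts, with its summit 90 bases before a start and the nearest ATAC peak 5195 bases away. Tnfsf13b, the B cell survival factor BAFF, fell by 2.46 in the authors' deposited table, and its peak lay 1 base from an ATAC peak of DKO 2. Close copies of Apol10a exist, and reads could be split among them.

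Cdx-type letters were common in the bound start windows. TTTATG, on either strand, was present in 17 of the 38 windows (44.7%), against 18.0% of 161 windows overlapped by Cdx2 peaks open in both Wt lists only, 9.21% of 76 overlapped by Cdx2 peaks open in a DKO list, and 12.2% of 26794 windows taken at the first listed start of each gene. TTTATT was present in 68.4%, against 26.7%, 11.8% and 19.9% in the same order. Either was present in 31 of 38 windows (81.6%), against 37.3%, 18.4% and 28.1%. The windows also differed in base composition, which moves with these shares, with a median GC content of 44.7% in the 38 windows, 54.0% at peaks open in both Wt lists, 65.3% at peaks open in a DKO list and 52.7% over all genes. Within windows of 40 to 50% GC, either motif was present in 16 of 20 windows with an ATAC-negative peak (80.0%), 29 of 51 with a peak open in both Wt lists only (56.9%) and 42.8% of 7691 windows of all genes. The gap was therefore smaller among windows of like GC content, and how much of it base composition carries was not tested beyond this.

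Before matching on GC content, letters of other factors were less unevenly spread when set against all genes. AGATAA, the GATA-type site, was present in 23.7% of the 38 windows against 13.0% at Cdx2 peaks open in both Wt lists and 11.4% over all genes. CAAAGTC, part of the HNF4-type site, was present in 7.89% against 4.39% over all genes. TGANTCA, the AP-1 site, was present in 5.26% against 7.98% over all genes. AGGTGGC and AGGGGGC, letters of the CTCF site, were present in 5.26% each, against 6.11% and 10.6% over all genes. Against the 76 windows at Cdx2 peaks open in a DKO list, the smaller unevenness did not hold throughout. There AGATAA was present in 5.26%, CAAAGTC in 2.63%, TGANTCA in 5.26%, AGGTGGC in 6.58% and AGGGGGC in 19.7%. Within windows of 40 to 50% GC, AGATAA was present in 4 of 20 with an ATAC-negative peak. It was present in 9 of 51 with a peak open in both Wt lists only and in 17.6% of 7691 over all genes, so its gap was small there. CAAAGTC was present in 3 of 20, 3 of 51 and 5.75% in the same order. With so few windows, whether these letters were less unevenly spread at like GC content cannot be told. TTTATG and TTTATT differ in their last letter only, and a match is a run of letters and no measured site. Chromosome 18 has no start windows here, which left 92 ATAC-negative peaks out of every statement on starts.

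The ATAC-negative peaks were not the weak end of the Cdx2 list. Their median fold enrichment over local background, the authors' value for each peak, was 5.73 (quartiles 4.96 and 7.05, range 3.31 to 20.3). Peaks open in 1 Wt list only had a median of 5.60, peaks open in both Wt lists only 5.40 and peaks open in a DKO list 5.08. The median −log10 q ran in the same order, at 7.65, 7.51, 7.15 and 5.94. Width was alike, with medians of 253 bases for ATAC-negative and 259 bases for all other Cdx2 peaks. A fold enrichment of at least 10 was reached by 156 ATAC-negative peaks (5.64%) and by 76 of the others (3.25%).

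By decile of fold enrichment, the ATAC-negative share was 42.7% (Wilson 95% interval 38.5 to 47.1%) in the lowest 510 peaks and 60.8% (56.5 to 64.9%) in the highest 510. Deciles 8 and 9 stood at 62.9% and 61.4%, with lower shares in all 7 deciles beneath them. ATAC-negative peaks made up 68 of the 100 peaks of highest fold enrichment, 63 of the 100 of highest −log10 q and 16 of the 20 of highest fold enrichment. All of these values come from 1 ChIP library, and the intervals cover counting error only.

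**Figure D2:**
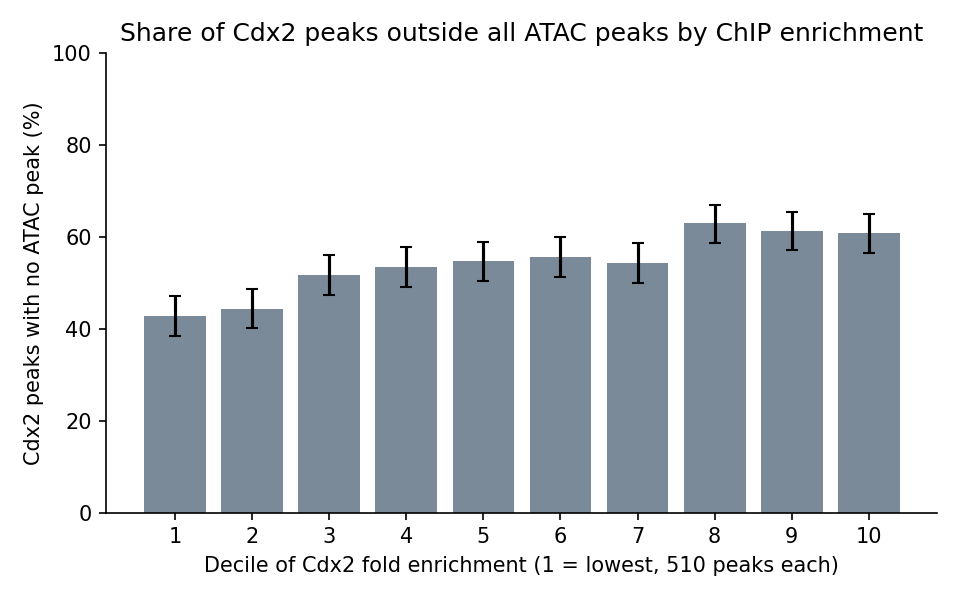
Share of Cdx2 peaks with no ATAC peak (vertical axis, %) in 10 deciles of ChIP fold enrichment (horizontal axis, 1 lowest, 510 peaks each), with Wilson 95% intervals as bars. The share is 42.7% in the lowest decile and between 60.8% and 62.9% in the highest 3.

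The 12 ATAC-negative peaks of highest fold enrichment, 15.6 to 20.3, lay in or near 12 different genes. The strongest (chr11:109933191-109933589, fold enrichment 20.3) lay inside Abca8b, a lipid transporter gene, 14517 bases from the nearest ATAC peak. Next came a peak inside Wwox (chr8:114505332-114505686, 19.3), which lay 169 bases from an ATAC peak of DKO 1 and at least 20992 bases from one of any other library. A peak 30169 bases from Lyzl4, a lysozyme-like gene, had the highest −log10 q of all ATAC-negative peaks, 102. These 3 were far from Wt accessibility, with the nearest Wt peaks 62165, 20992 and 30162 bases away.

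The others of the 12 lay inside Eri3, Prkg2, Zfp111, Ppp2r2b and Mob3b and nearest to Olfr535, Tmco5b, Abca12 and Rnf186. Prkg2, a cGMP-dependent protein kinase of intestinal ion secretion, held a peak of fold enrichment 16.8 (chr5:99010504-99010889), and its RNA had a log2 fold change of -5.01 in the authors' deposited table. Rnf186, a ubiquitin ligase of the colon epithelium, lay 11733 bases from a peak of fold enrichment 16.1 (chr4:138955212-138955571), and its log2 fold change was -2.89 in the authors' deposited table. The RNA of the other 10 did not share a direction. In the authors' deposited table Abca12 and Eri3 (-0.69) were also lower and Mob3b (0.71) was higher, while Abca8b, Wwox, Zfp111 and Ppp2r2b were not called. Lyzl4, Olfr535 and Tmco5b have no value used here. The gaps to the nearest ATAC peak ran from 169 to 16313 bases over the 12.

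Across chromosomes, the ATAC-negative share ran from 44.8% on chromosome 16 to 59.0% on chromosome 9, and was 54.0% over the autosomes. On X it was 48 of 66 peaks (72.7%, Wilson 95% interval 61.0 to 82.0%). X held 1.79% of the Wt and 3.25% of the DKO ATAC peaks. The sex of the mice was not considered here, and its part in these shares was not tested.

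Distance to the nearest ATAC peak was measured edge to edge in each library. In Wt 1, 394 of the 2765 ATAC-negative peaks (14.2%) lay within 1 kb of an ATAC peak. In Wt 2 the count was 415 (15.0%), in DKO 1 it was 136 (4.92%) and in DKO 2 it was 104 (3.76%). Both Wt libraries were thus above both DKO libraries, without overlap. The means were 14.6% ± 0.54 in Wt and 4.34% ± 0.82 in DKO (SD, n = 2 each), a difference of 10.3 percentage points, given as a description with no test. The rule had already taken out the Cdx2 peaks overlapping these same lists, 1994 and 2094 of them by the Wt lists and 108 and 243 by the DKO lists, so the gaps are not independent of it.

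The lists differed in length in the same direction, with 48163 and 53943 peaks in Wt 1 and 2 and 40101 and 23961 in DKO 1 and 2. Peaks with a −log10 q of at least 5 numbered 23336 and 27808 in Wt but 6297 and 4175 in DKO. Per 10000 peaks listed, the share within 1 kb was 2.96 and 2.78 points in Wt and 1.23 and 1.57 points in DKO. That scaling counts weak and strong calls alike, and the part of list length in the difference was not tested. Nor was the part of call quality tested, although the lists differed more in peaks with a −log10 q of at least 5 than in length. Median gaps were 7938 and 7198 bases in Wt 1 and 2, and 15540 and 24322 bases in DKO 1 and 2.

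Taking all 4 lists, 576 ATAC-negative peaks (20.8%) had an ATAC peak within 1 kb, and 1565 (56.6%) within 5 kb, with a median gap of 3973 bases. Most were therefore well clear of the overlap rule. Only 18 lay under 10 bases from an ATAC peak, with fold enrichments of 3.60 to 7.48 (median 4.59), beside 19 peaks that overlapped one by 10 bases or fewer, with 3.98 to 6.29 (median 4.77). At the far end, 29 (1.05%) were over 100 kb from any ATAC peak. The most isolated, chr2:83251258-83251462, lay 392772 bases away, and its nearest gene was Fsip2 at 242438 bases. Fold enrichment was higher at longer gaps, with medians of 5.25 under 200 bases and 6.24 from 20 kb on.

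Where an ATAC peak lay near these peaks, it was more often a Wt one. Within 1 kb, 384 had a peak in a Wt list and in no DKO list, 89 in a DKO list and in no Wt list, and 103 in both. Of the 322 that were near a peak in both Wt lists, 86 (26.7%) were also near one in a DKO list. Of the 48 that were near a peak in both DKO lists, 35 (72.9%) were also near one in a Wt list. The remaining 2189 (79.2%) had none within 1 kb in any list. The Wt lists were longer and held more strong calls, and the same lists chose these peaks. What part this has in the counts was not tested.

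**Figure D3:**
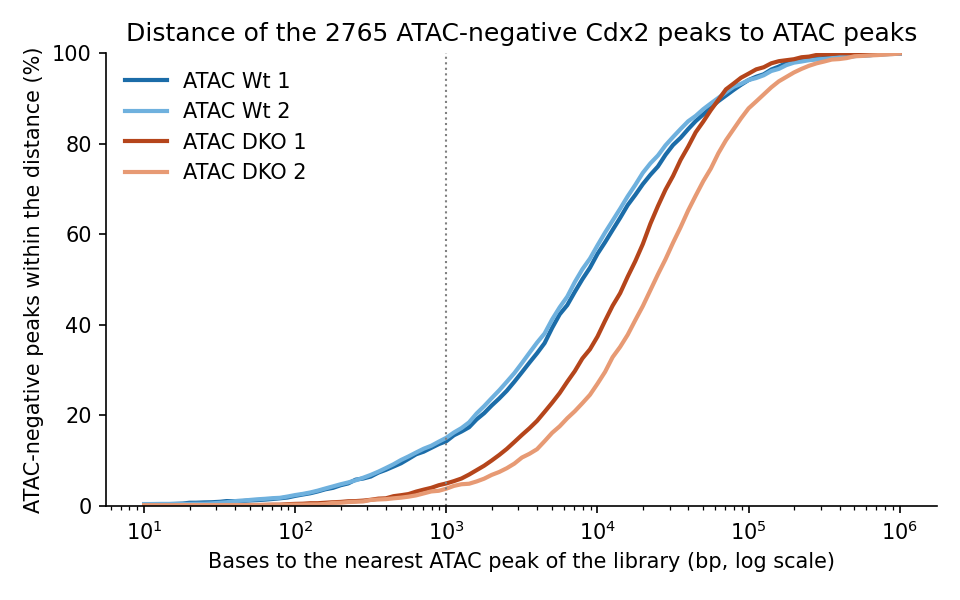
Cumulative share of the 2765 ATAC-negative Cdx2 peaks (vertical axis, %) with an ATAC peak within a given distance (horizontal axis, bp, log scale), 1 line per ATAC library, with 1 kb dotted. At 1 kb the Wt lines stand at 14.2% and 15.0% and the DKO lines at 4.92% and 3.76%.

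ATAC-negative peaks were scattered about as widely as other Cdx2 peaks. The nearest other Cdx2 peak lay at a median of 58228 bases, and 17.2% had one within 10 kb, close to the 17.1% of peaks open in both Wt lists only. Within 10 kb, 7.09% had a Cdx2 peak that was open. Chaining ATAC-negative peaks at gaps of up to 10 kb left 2455 alone, 136 pairs, 10 groups of 3 and 2 groups of 4. One group of 4 (chr17:81734278-81753689) lay at Slc8a1, a sodium-calcium exchanger, and the other (chr7:126646605-126665348) at Sgf29, a subunit of a histone acetyltransferase complex. By number inside 1 gene, Lingo2 with 7, Auts2 with 6 and Ptprd with 5 led, and these genes are long, at 1255, 1106 and 2271 kb.

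The ATAC-negative peaks lay away from transcription starts more often than the other classes of Cdx2 peaks. These classes are set by ATAC overlap itself, and how far that rule makes the contrast was not tested. The summit was within 1 kb of a listed start for 126 of 2673 ATAC-negative peaks (4.71%, Wilson 95% interval 3.97 to 5.58%). The share was 6.74% for peaks open in 1 Wt list only, 15.0% (13.3 to 16.9%) for peaks open in both Wt lists only and 39.4% (33.6 to 45.4%) for peaks open in a DKO list. Median distances to the start were 21320, 18046, 17454.5 and 6281 bases in that order. Over 100 kb from any start lay 391 (14.6%), against 10.7% of peaks open in both Wt lists only. The share inside a coding gene's span was 49.9% (48.1 to 51.8%), close to the 47.9% of peaks open in both Wt lists only.

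**Figure D4:**
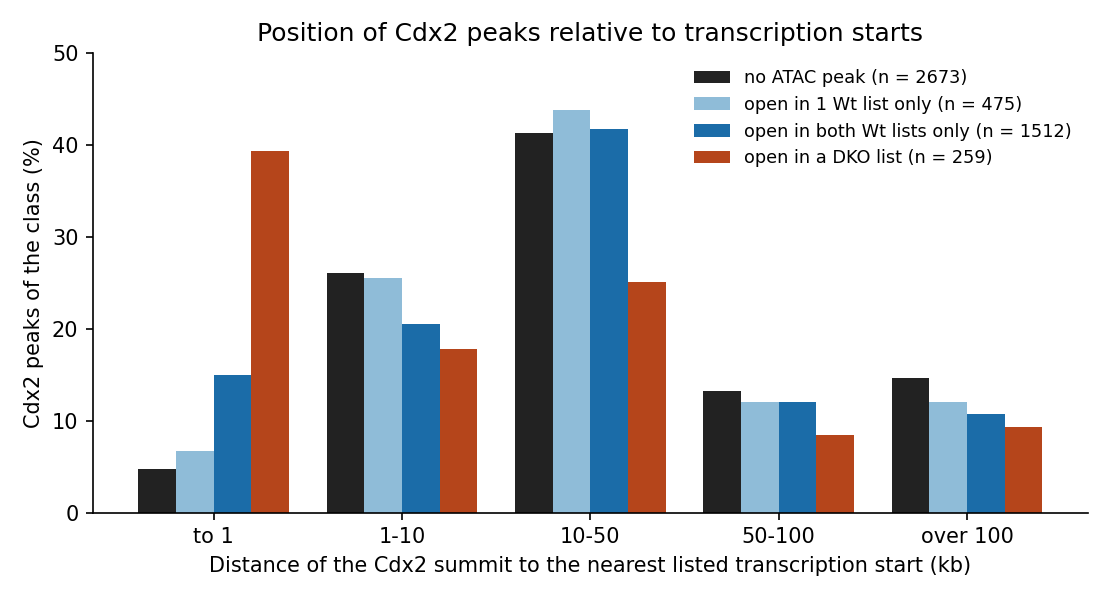
Share of Cdx2 peaks (vertical axis, %) by distance of the summit to the nearest listed start (horizontal axis, kb) for ATAC-negative peaks (black), peaks open in 1 Wt list only (light blue), in both Wt lists only (blue) and in a DKO list (red). Within 1 kb the black bar is the lowest of the 4 at 4.71% and the red bar the highest at 39.4%.

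Genes near ATAC-negative peaks were called lower more often than genes at large. Of 618 genes with a listed start within 10 kb of such a summit, the authors' deposited table called 175 lower (28.3%, Wilson 95% interval 24.9 to 32.0%) and 100 higher (16.2%, 13.5 to 19.3%) in DKO. The background was 19.4% lower and 20.3% higher over 12118 genes. The median log2 fold change was -0.18 against -0.02 over all these genes, from the authors' deposited table. Genes near peaks open in 1 Wt list only were alike, with 36 of 121 lower in the authors' deposited table (29.8%, 22.3 to 38.4%), so the share is not particular to ATAC-negative peaks. By the authors' deposited table, genes near peaks open in both Wt lists only stood nearer the background, with 102 of 443 lower (23.0%) and 76 higher (17.2%), and the intervals of the shares lower, 24.9 to 32.0% and 19.3 to 27.2%, overlap. Near peaks open in a DKO list, the authors' deposited table had 23 of 134 genes lower (17.2%) and 35 higher (26.1%).

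The 571 genes that had an ATAC-negative peak and no other Cdx2 peak within 10 kb gave 161 lower (28.2%) in the authors' deposited table. Of 10864 genes with no Cdx2 peak there, the authors' deposited table had 18.7% lower and 20.6% higher. By the authors' deposited table, 17 of 33 genes with 2 ATAC-negative peaks within 10 kb were lower (51.5%) and 4 higher, and 26.9% of 577 genes with 1 such peak were lower. With 3 or more such peaks, 3 of 8 genes were lower (37.5%) and 0 higher by the authors' deposited table, so the share did not rise steadily with peak number. Among the 17, chosen here after their values were seen, were Ugt1a1, which conjugates bilirubin (-2.35), the mucosal keratin gene Krt20 (-0.92) and the sialyltransferase gene St3gal3 (-2.21), all log2 fold changes of the authors' deposited table. Some genes with 2 or more such peaks are neighbours and so are not independent. Hoxa3, Hoxa5, Hoxa6 and Hoxa7, all among the 8, lie together on chromosome 6, and Hoxa3 and Hoxa6 share a nearest peak. So do Hoxd3 and Hoxd3os1, and Clock and Gm7467, among the 33. In bulk RNA, fewer cells of a type and less RNA per cell cannot be told apart.

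**Figure D5:**
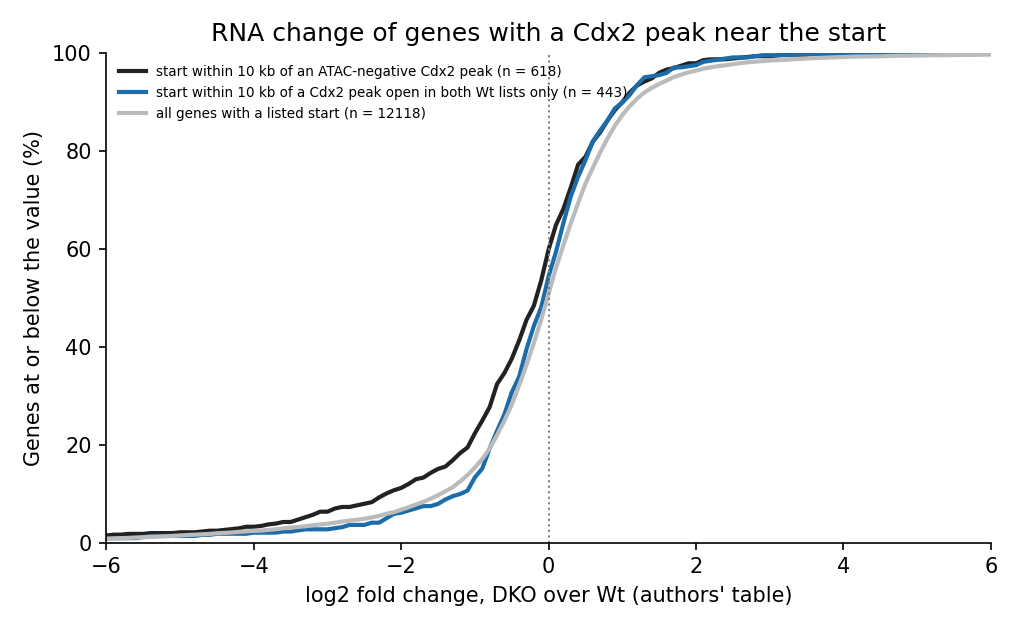
Cumulative share of genes (vertical axis, %) by log2 fold change, DKO over Wt, of the authors' deposited table (horizontal axis), for genes starting within 10 kb of an ATAC-negative Cdx2 peak (black, 618 genes), of a Cdx2 peak open in both Wt lists only (blue, 443) and for all genes with a listed start (grey, 12118). The black line lies above the grey one on the negative side, with medians of -0.18 and -0.02.

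The 8 lowest named genes within 10 kb of an ATAC-negative peak were Abca12, Sis, Apol10a, Mgat4c, Slc8a1, Cxcl12, Tmigd1 and Btnl1. Abca12, a lipid transporter, stood at -13.98 (SE 3.38) on the log2 scale in the authors' deposited table, and its peak lay 6908 bases before the start at a fold enrichment of 8.03. Abca12 was the nearest gene of 3 further ATAC-negative peaks. Of these, chr1:71373014-71373452 (fold enrichment 13.1) and chr1:71381159-71381461 (7.41) lay inside the gene, and chr1:71475689-71476083 (16.5) lay 60988 bases from it. Mgat4c, an enzyme that branches N-glycans, stood at -7.28 (SE 0.43) on the log2 scale in the authors' deposited table and had 2 ATAC-negative peaks within 10 kb. Slc8a1 stood at -6.30 (SE 0.50) on the log2 scale in the authors' deposited table, with 3 ATAC-negative peaks of the group of 4 within 10 kb of a listed start. The gaps of the group of 4 at Slc8a1 to the nearest ATAC peak were 11113, 2256, 643 and 7016 bases.

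Not all of these genes are epithelial. Cxcl12, a chemokine made by stromal cells, stood at -5.93 (SE 0.79) on the log2 scale in the authors' deposited table, and Btnl1, a butyrophilin-like gene of enterocytes with close copies, at -4.70 (SE 0.26). An open Cdx2 summit lay nearer the Btnl1 start, at 3856 bases, than the ATAC-negative one, at 6436 bases. Stromal, muscle and endothelial markers also differed by genotype, with 20 of 20 lower, a median log2 fold change of -5.13 and means of 21.5 to 2461 normalized counts in the authors' deposited table. Markers of enteric neurons and glia were lower in 6 of 10, with a median of -4.90 in the authors' deposited table. Values per library are not used here for genes, and the part of these cells in the lower calls near ATAC-negative peaks was not tested. An ATAC-negative peak lay within 50 kb of the start for 1 of 11 stromal genes, the endothelial receptor Tek, and for 0 of 5 neuronal and glial genes, against 17.6% of all genes.

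The 8 highest were Gsta1, Hif1a, Krt36, Alcam, Zc3h11a, Sh3bp2, Sgms2 and Stil. Gsta1, a glutathione transferase with close copies, stood at 4.29 (SE 0.21) on the log2 scale in the authors' deposited table, with its peak 5994 bases before the start. Hif1a, the hypoxia-inducible factor, had 3.20 (SE 0.34) in the authors' deposited table, with a peak 2575 bases before a listed start and 2093 bases from the nearest ATAC peak. Alcam, an adhesion molecule, had 2.65 (SE 0.24) in the authors' deposited table, and its peak lay 6945 bases into the gene. Zc3h11a (2.55), an RNA-binding gene that overlaps Zbed6, Sh3bp2 (2.15), an adaptor, Sgms2 (2.05), a sphingomyelin synthase, and Stil (2.05), a centriole gene, completed the set from the authors' deposited table. Each of the 8 had 1 ATAC-negative peak within 10 kb. For Sgms2 an open Cdx2 summit lay nearer the start, at 3590 bases, than the ATAC-negative one, at 8170 bases.

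Among lists of related genes, those of intestinal identity, of absorptive colonocytes and of TRIM and inflammasome genes had ATAC-negative peaks nearby most often. Some genes of a list are neighbours, such as Naip5 and Naip6, and so are not independent. Shares near open Cdx2 peaks are not given for these lists, so the nearness is not shown to be particular to ATAC-negative peaks. Of the 19 intestinal identity genes with a listed start, 10 had such a peak within 50 kb, against 17.6% of all genes, and the authors' deposited table had 8 of the 10 lower and 0 higher, beside 18 of 28 lower over the list. Within 10 kb there were 5, all called lower in the authors' deposited table. Isx, a homeobox gene of the gut, stood at -5.76 (SE 0.32) on the log2 scale in the authors' deposited table, with its nearest ATAC-negative peak 23079 bases from the start. Of 16 absorptive colonocyte genes, 9 had a peak within 50 kb, of which the authors' deposited table had 7 lower and 1 higher, beside 14 of 22 lower and 3 higher over the list. Both lists were largely lower as a whole, so the calls near peaks are no separate result. Slc26a3, the chloride-bicarbonate exchanger, is on both lists.

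Muc3, a membrane mucin, had an ATAC-negative peak 4921 bases before its start and a log2 fold change of -2.91 (SE 0.24) in the authors' deposited table. Cyp2c55, a colonic cytochrome P450, had a fold change of -5.01 (SE 0.28) on that scale in the authors' deposited table, with its ATAC-negative peak 19952 bases before the start and an open Cdx2 summit nearer, at 1765 bases. Slc9a3, the sodium-hydrogen exchanger of the brush border, had -2.55 (SE 1.37) in the authors' deposited table. For Cyp2c55 the open Cdx2 peak was thus the nearer one.

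Goblet cell genes had a peak within 50 kb in 3 of 10 cases, all called lower in the authors' deposited table, beside 16 of 20 lower over the list. Muc2, the secreted gel-forming mucin, stood at -4.95 (SE 0.20) on the log2 scale in the authors' deposited table, with its peak 13473 bases before the start. Ang4, a secreted ribonuclease with close copies, had -11.95 (SE 0.42) in the authors' deposited table and a peak of fold enrichment 9.89 at 20709 bases. Atoh1, the secretory lineage factor, had -2.38 (SE 0.23) in the authors' deposited table. No peak of this kind lay within 10 kb of a goblet cell gene.

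The TRIM and inflammasome list, on the subject of the study's title, had a peak within 50 kb in 9 of 19 cases, of which the authors' deposited table had 4 lower and 0 higher, beside 4 lower and 5 higher of 20 over the list. Nlrp6, an inflammasome sensor of the gut, stood at -2.68 (SE 0.19) on the log2 scale in the authors' deposited table, and its peak lay 7677 bases before the start. Casp1, the inflammasome protease, had -1.40 (SE 0.25) in the authors' deposited table, with a strong peak (fold enrichment 12.4) 12279 bases before the start and an open Cdx2 summit at 1677 bases. Trim31, a ubiquitin ligase, had -1.48 (SE 0.45) in the authors' deposited table. Its ATAC-negative peak (chr17:36922581-36922785) was of low fold enrichment, 4.18, lay 12536 bases outside the gene and 47 bases from an ATAC peak of DKO 1, and an open Cdx2 summit lay 888 bases from the start. No ATAC-negative peak lay within 50 kb of Nlrp3 or Cdx2, and 1 lay near Cdx1.

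For the other lists the shares within 50 kb stood on either side of the 17.6% of all genes, on few genes each. Stem cell and Wnt target genes had a peak within 50 kb in 3 of 13 cases (23.1%), with Cdca7 at -1.73 (SE 0.38), Rnf43 at 0.94 (SE 0.26) and Axin2 at -0.32 (SE 0.25, not called) as log2 fold changes in the authors' deposited table. For Rnf43 an open Cdx2 summit lay nearer the start, at 2563 bases, than the ATAC-negative one, at 16554 bases. Enteroendocrine genes had an ATAC-negative peak within 50 kb in 3 of 16 cases (18.8%), with Nts at -4.29 (SE 0.41) and Cck at -1.37 (SE 0.77) called lower and Gcg at 0.27 (SE 0.31) not called in the authors' deposited table. Gastric genes had none in 7. AP-1 and immediate early genes had 1 in 13, Maff, which was not called. Immune lists had 1 of 5 for B and plasma cells (Cd79a), 2 of 8 for T cells (Cd8a and Lck) and 1 of 11 for myeloid cells (Itgam).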

How the data were processed

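Peak lists of 4 ATAC-seq libraries and 1 Cdx2 ChIP-seq library, and a table of 17511 genes comparing RNA-seq DKO with Wt, were used as deposited. Per the submitters' processing notes, the tools were Salmon 1.3.0, DESeq2, MACS2, BWA, fastp and Bowtie2, with mm10 and GRCm38 as builds and no roles stated. Settings, the ChIP control used in calling and any transposase shift: not given in the sources used here. Read depths are unknown for the peak lists.

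Peaks were called by the authors for each library, as the library in each peak name shows, per the file headers. Each peak's fold enrichment is a linear ratio over local background deposited by the authors, its −log10 p and −log10 q are deposited by the authors, and its score is a multiple of −log10 q per the file format of the deposited lists. No ATAC peak had a −log10 q under 1.30, and no ChIP peak one under 1.54. In the gene table, the mean normalized count (a signal scaled between libraries by the authors), the log2 fold change with its SE, and the p-value are deposited by the authors. Adjusting the p-values by Benjamini-Hochberg returned the authors' adjusted p. For some genes the log2 value is small beside its SE although the gene is called. Olfm4 had 0.37 (SE 1.06) with an adjusted p of 0.0202 in the authors' deposited table. The SE is therefore not to be read as the error behind the p-value. Transcript estimates per library were not used, because nothing here pairs transcripts with genes, so genes have no value per library and no replicate check here.

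Overlap (at least 1 bp), gaps and distances were computed on chromosomes 1 to 19 and X with pandas 2.3.3, numpy 2.4.6 and scipy 1.17.1 under Python 3.11.15, checked on simulated data. Genes were placed by RefSeq GRCm38.p6: 12118 (69.2%) had a listed start and 16365 (93.5%) a span. Shares carry Wilson 95% intervals. The permutation test planned over ATAC libraries is not reported, since the lists compared also chose the peaks. The ATAC-negative peaks (members) and the gene lists were chosen with earlier results of these data known. Genes named are the 8 highest and 8 lowest in log2 fold change within 10 kb of a member (adjusted p under 0.05, mean of at least 50, no model names), up to 3 per list by size, genes nearest to the 12 strongest, 4 nearest and 4 farthest members and to Cdx2, Cdx1, Trim31 and Nlrp3, and genes with a member over a start window. Alternatives varied the overlap rule, peak thresholds, distances and libraries.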

Additional observations from a re-analysis of the deposited data

Results flagged for a closer look

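Outside the chromosomes analysed, the Cdx2 list held 72 peaks on 10 unplaced scaffolds, with a median fold enrichment of 4.25. It also held 7 peaks on the mitochondrial genome, with a median of 1.88. Both were flagged because no comparison used them. The ATAC lists held 4 and 6 peaks outside these chromosomes in Wt, on 1 sequence in each list, and 0 and 0 in DKO. None of them was on an unplaced scaffold or the mitochondrial genome, so overlap could not be judged there. Whether the sex of the mice differed between the libraries was not tested.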

How the results depend on the processing

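The ATAC-negative share of 54.2% depends on what counts as open. It was 65.2% where an ATAC peak had to cover the Cdx2 summit, 69.9% where it had to cover at least 50% of the Cdx2 peak, 67.4% with ATAC peaks of −log10 q of at least 5, 50.3% with ATAC peaks within 200 bp counted and 46.9% within 500 bp. It was 56.1% and 58.0% with Cdx2 peaks of −log10 q of at least 5 and 10. Leaving out each ATAC library in turn gave 54.4 to 60.0%, the highest without Wt 2, and the Wt lists alone gave 54.9%. The share of ATAC-negative peaks above the median fold enrichment of all Cdx2 peaks, 54.4%, was 56.7% with peaks within 500 bp counted as open and 53.9 to 54.5% with each library left out.

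The Wt minus DKO difference within 1 kb, 10.3 points, was 7.72 points at 500 bp and 20.8 points at 5 kb, and 9.71 to 10.9 points with each library left out. Taking the replicate number as a block gives the same 10.3 points by arithmetic, so that setting is no check. The share of nearby genes called lower was 28.3%, and 24.6% at 50 kb and 24.3% for the gene nearest to each peak, both nearer the background of 19.4%. The other gene settings varied here, which do not include the 1 kb distance, gave 27.4 to 30.3% lower and 15.9 to 18.3% higher. One of them (either end of the gene span) was chosen after seeing the data. The share higher was 18.3% at 50 kb and 19.1% for the nearest gene. The cause of these shifts was not tested beyond the settings' own construction. With p readjusted over the genes that reach a mean normalized count of 50, 52 of the 52 named genes tested there kept their side of the threshold. Their adjusted p was lower in that setting, so no call could be lost, and this is no check on the calls. List length and call quality limit every ATAC-negative call, and 1 ChIP library gives no replicate error.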
